A study of Mus musculus with 16 samples.

Results

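Foxp3 and 8 genes that mark regulatory T (Treg) cells were followed through the early culture of mouse CD4 T cells with and without the kinase Erk2, which relays signals from the T cell receptor. The members were all probes annotated to Foxp3, Il2ra, Ctla4, Tnfrsf18, Ikzf4, Ikzf2, Itgae, Capg and Swap70 on an Illumina bead array. There were 9 genes of 16593, and 22 of the 25697 probes on the array, and 19 of the 14501 probes that passed the filter on low signal. The 3 probes below the filter were the fainter Ikzf4 probe and 2 of the 6 Itgae probes. Probes of a gene are numbered from the brightest, so Foxp3 probe 1 has the highest mean level of the 3 Foxp3 probes.

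The cells were CD4 T cells of strain C57/BL6, wild type (WT) or Erk2-deficient, the latter labelled Erk2 KO. The sources used here do not give how Erk2 was deleted, how old the mice were or whether cultures came from separate animals, so the p-values cover the spread among these samples alone, which may be technical. For each genotype there was a day 0 sample, 3 hr samples from Th0 and iTreg cultures, and day 1 samples from Th0, iTreg and Th1 cultures. Th0 is neutral culture, Th1 culture favours interferon-producing helper cells, and iTreg culture favours induced Treg cells. Day 1 Th0 cells were also measured after 1 hr or 3 hr of TGF (transforming growth factor beta). The 8 cultures and 2 genotypes gave 16 arrays, 1 for each combination, and the study asked how Erk2 regulates Th1 and iTreg differentiation.

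Foxp3 is the transcription factor that defines Treg cells, and naive CD4 T cells can be brought to express it by T cell receptor stimulation together with TGF and interleukin 2. Smad proteins carry the TGF signal, STAT5 the interleukin 2 signal and NFAT the receptor signal to the Foxp3 gene. Much of the surface phenotype of Treg cells, including the interleukin 2 receptor alpha chain and CTLA-4, is also induced on conventional T cells when they are activated, so these markers do not separate the cell types in a freshly stimulated culture.

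Levels are log2 intensities after background correction and quantile normalization, and differences are differences of those log2 values. A probe was above background on an array from a level of about 6.29 to 6.33. Each array had 12172 to 12636 probes above background. The first principal component, which held 71.7% of the variance, placed the Erk2-deficient day 1 iTreg array at 17.1, apart from the other 9 day 1 arrays at 29.98 to 35.1. The T cell markers Cd3d, Cd3e, Cd3g and Cd4 were above background on every array. In the day 0 pair the genotype labels are in doubt. Gdpd3 was higher in the Erk2-deficient array of all 7 cultured pairs but read 10.11 on the array labelled WT day 0 and 6.63 on the array labelled Erk2-deficient day 0. The haemoglobin gene Hba-a1 also ran the opposite way at day 0 to its course at 3 hr. In the results given here the day 0 arrays therefore enter tests only as the mean of both genotypes, which an exchange of the labels leaves unchanged. The plot of pair differences draws the day 0 pair as labelled. The transcript of the Erk2 gene itself was not analysed here.

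RefSeq lists 2 transcription starts for Foxp3, and the 250 bases before each are shown because the other members are read against Foxp3. Capitals mark letters that match a motif of one of the pathways named above, on either strand: CAGAC (the Smad box), TTCNNNGAA (STAT) and GGAAA (NFAT). TGANTCA (AP-1) was also searched and was in neither window. The sequences are from RefSeq, build GRCm38.p6, plus strand, at chrX:7579426-7579675 for start 1 and chrX:7580233-7580482 for start 2.
Foxp3 start 1: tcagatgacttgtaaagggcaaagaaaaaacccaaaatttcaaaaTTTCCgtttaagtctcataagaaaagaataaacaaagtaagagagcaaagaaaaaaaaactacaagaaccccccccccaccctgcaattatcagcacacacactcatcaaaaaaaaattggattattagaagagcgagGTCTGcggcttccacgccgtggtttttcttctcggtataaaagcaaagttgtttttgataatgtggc
Foxp3 start 2: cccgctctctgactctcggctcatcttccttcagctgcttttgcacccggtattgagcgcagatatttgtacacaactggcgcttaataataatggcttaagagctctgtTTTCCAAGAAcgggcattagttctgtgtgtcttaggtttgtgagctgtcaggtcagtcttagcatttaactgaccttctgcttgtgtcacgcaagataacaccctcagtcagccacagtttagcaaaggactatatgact
Start 1 held 1 Smad box, read on the minus strand as GTCTG, and 1 NFAT match. Start 2 held 1 STAT and 1 NFAT match that overlap. Of 32851 mouse windows of this length, 42.2% held a Smad box, 7.02% the STAT motif, 55.6% the NFAT motif and 6.75% the AP-1 motif. The letters are a description of the windows and show no binding. RefSeq windows were matched for 6 of the 9 genes and not for Ikzf4, Ikzf2 and Itgae. For comparison the window of Capg, whose rise in iTreg culture was of like size, lies at chr6:72549397-72549646 and held none of the 4 motifs.
Capg start 1: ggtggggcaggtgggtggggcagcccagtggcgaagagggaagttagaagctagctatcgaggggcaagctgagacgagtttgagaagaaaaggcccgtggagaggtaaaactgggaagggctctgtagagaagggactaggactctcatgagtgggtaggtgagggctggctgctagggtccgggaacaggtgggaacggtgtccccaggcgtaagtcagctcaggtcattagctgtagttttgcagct
The window of Tnfrsf18 held 2 Smad boxes, 1 STAT match and 2 NFAT matches. Those of Il2ra, Ctla4 and Swap70 held 1 NFAT match each and none of the other motifs. Whether the motifs relate to the levels in iTreg culture was not tested.

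Foxp3 was higher in day 1 iTreg culture than in the other day 1 cultures on all 3 of its probes. Probe 1 read 9.34 on the WT iTreg array and 10.39 on the Erk2-deficient one. On the 8 arrays of the other day 1 cultures its lowest, median and highest levels were 7.09, 7.43 and 7.84. The groups did not overlap, and the difference was 2.46 (SE 0.10, adjusted p = 5.8e-11, limma), a 5.50-fold difference in intensity. Probe 2 differed by 2.27 (SE 0.09) and the faint probe 3 by 1.48 (SE 0.11), again without overlap. Probe 3 was above background on 3 of the other 8 day 1 arrays. The difference was 2.18 on the WT arrays alone and 2.74 on the Erk2-deficient arrays alone. In these bulk samples more Foxp3-expressing cells and more Foxp3 RNA per cell cannot be told apart.

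**Figure D1:**
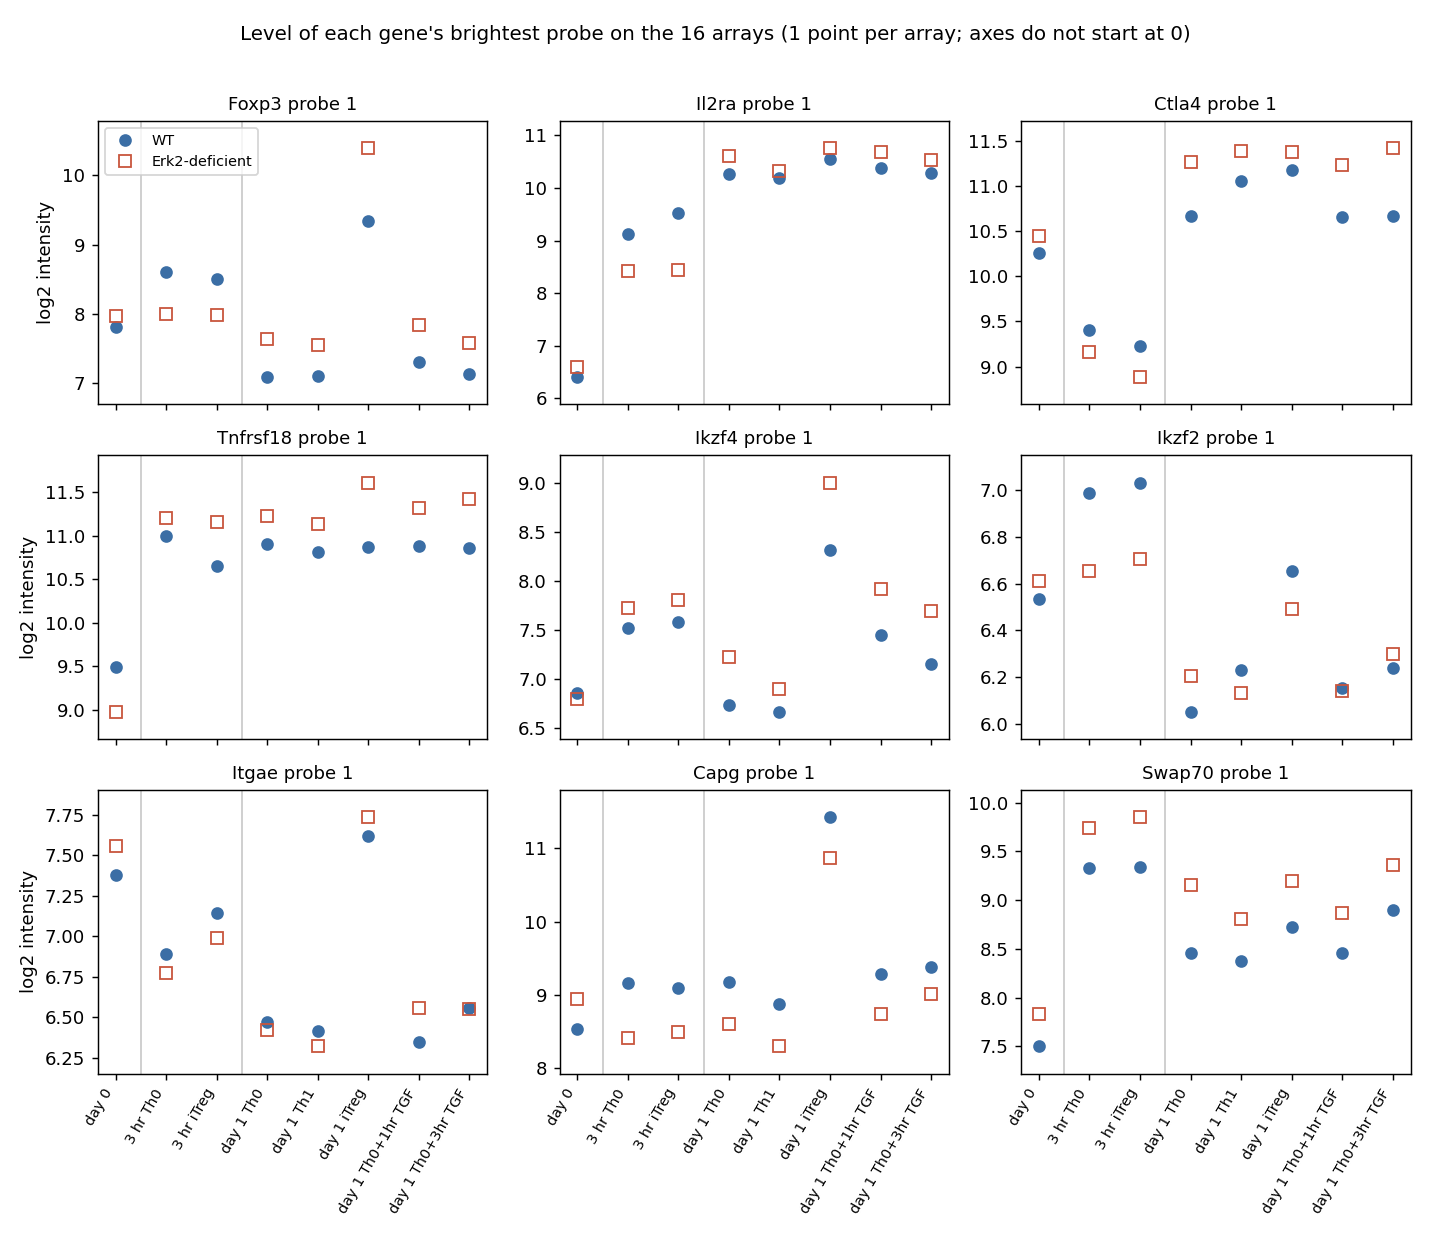
Log2 intensity of the brightest probe of each of the 9 genes (vertical axes, each with its own range) in the 8 cultures (horizontal axis), with filled circles for WT and open squares for Erk2-deficient, 1 point per array. Foxp3, Ikzf4, Itgae and Capg have their highest day 1 levels in iTreg culture, while Il2ra, Ctla4 and Tnfrsf18 are high in every day 1 culture.

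Over the 8 cultures the mean of both genotypes for Foxp3 probe 1 was 9.87 in day 1 iTreg, 8.30 in 3 hr Th0, 8.25 in 3 hr iTreg, 7.90 at day 0, 7.58 in day 1 Th0 with 1 hr TGF, 7.36 in day 1 Th0, 7.36 in day 1 Th0 with 3 hr TGF and 7.33 in day 1 Th1. The 3 hr cultures did not differ from each other beyond their spread (iTreg minus Th0 -0.05, adjusted p = 0.993). The 4 lowest cultures also lay closer together than their 2 genotypes did.

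Ikzf4 encodes Eos, a zinc finger protein that works with Foxp3 as a corepressor. Its probe 1 read 8.32 in WT and 9.01 in Erk2-deficient iTreg culture, against 6.67, 7.19 and 7.93 for the lowest, median and highest of the other 8 day 1 arrays. The iTreg arrays lay above all others, by 1.45 (SE 0.08, adjusted p = 2.2e-09). Its fainter probe was above background on 1 array and was not tested. Ikzf2, which encodes the related factor Helios, read 6.65 and 6.49 on the WT and Erk2-deficient iTreg arrays. It was not above background on any of the other 8 day 1 arrays. Its rise was 0.39 (SE 0.07, adjusted p = 0.00168), or at least 1.20-fold, where the bound sets the iTreg mean against the lowest level that counts as above background.

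The surface receptors divided. Itgae, the CD103 integrin chain that binds E-cadherin on epithelium, read 7.62 and 7.73 on probe 1 in iTreg culture, and the other 8 arrays had a lowest, median and highest level of 6.32, 6.45 and 6.56. Probe 1 rose by 1.22 (SE 0.07) and probe 2 by 1.27 (SE 0.08), while the faint probe 3 rose by 0.31 and probe 5 read 0.49 higher. Both faint probes were above background in day 1 only on the iTreg arrays, and their bounds were at least 1.15-fold and at least 1.09-fold. Probe 5 was above background on no other array, so it passed the filter only through the iTreg arrays and its value is a description. The probes below the filter, 4 and 6, were above background on 0 and 1 of the 16 arrays.

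Il2ra encodes CD25, the alpha chain that gives the interleukin 2 receptor its high affinity. It read 10.55 and 10.76 in iTreg culture and 10.20, 10.35 and 10.69 for the lowest, median and highest of the other day 1 arrays, so the groups overlapped. The difference of 0.24 (SE 0.08) had an adjusted p of 0.0503. Ctla4, an inhibitory receptor that competes for CD80 and CD86, read 11.18 and 11.38 against 10.66, 11.14 and 11.42 (0.24, SE 0.09, adjusted p = 0.0970).

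Tnfrsf18 encodes GITR, a costimulatory receptor of the TNF receptor family. Probe 1 read 10.87 and 11.61 in iTreg culture, and the other arrays ranged from 10.81 to 11.42 (0.17, SE 0.09, adjusted p = 0.228). Its WT difference was 0.01 and its Erk2-deficient difference 0.33. Without the WT iTreg array both Tnfrsf18 probes passed the test, and without the Erk2-deficient iTreg array Ctla4 did. Il2ra passed in some settings, with adjusted p values of 0.0361 to 0.0484.

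Capg caps actin filaments and Swap70 is a phosphoinositide-dependent exchange factor that binds actin. Capg probe 1 read 11.42 and 10.86 in WT and Erk2-deficient iTreg culture, and the lowest, median and highest of the other 8 day 1 arrays were 8.30, 8.94 and 9.38. The groups were far apart (2.22, SE 0.07, adjusted p = 8.0e-12, 4.66-fold), and probe 2 rose by 1.14 (SE 0.08). Swap70 probe 1 read 8.72 and 9.19 against 8.37, 8.84 and 9.36, so that the iTreg arrays lay inside the range of the others. Only probe 3 of its 4 probes passed the test (0.30, SE 0.08, adjusted p = 0.0178), with overlapping groups, and that call was lost without the WT iTreg array (0.18, adjusted p = 0.224).

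**Figure D2:**
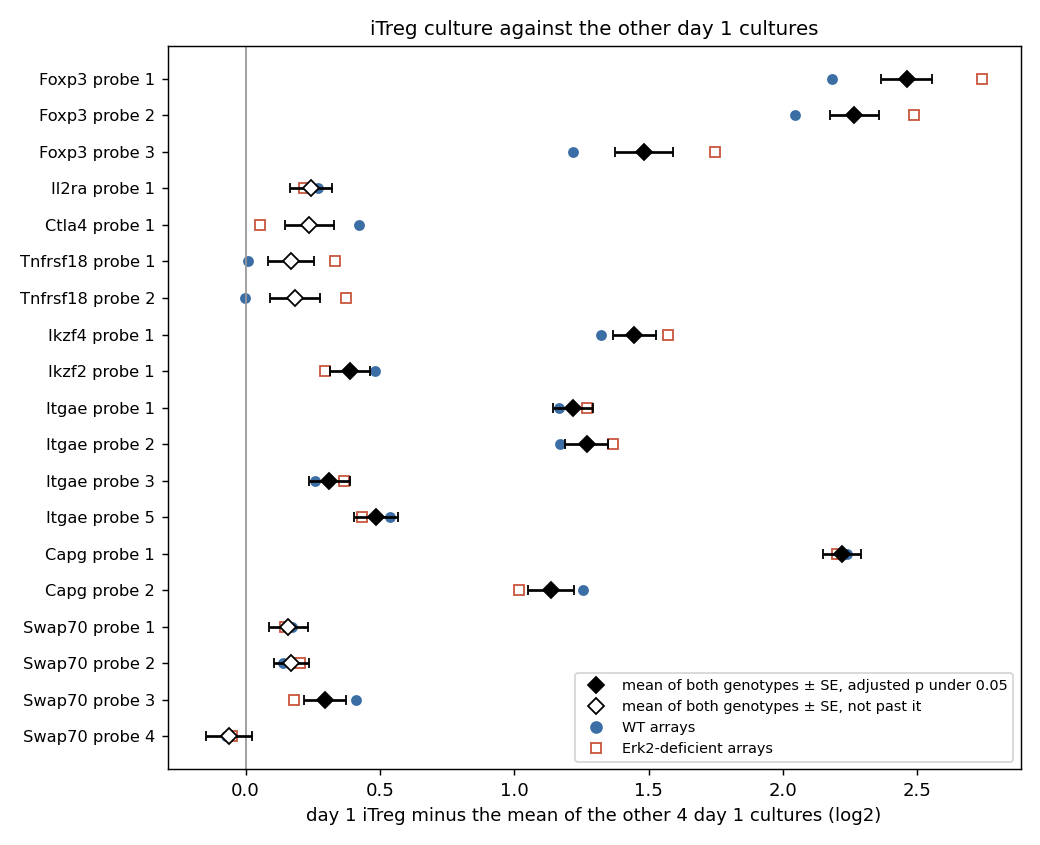
Difference between day 1 iTreg culture and the mean of the other 4 day 1 cultures for the 19 probes tested (log2, horizontal axis). Diamonds are the mean over both genotypes with its SE, filled where the adjusted p was under 0.05, circles are the WT arrays and squares the Erk2-deficient arrays. The 12 filled diamonds are all to the right of 0, with Foxp3 probe 1 at 2.46 and Capg probe 1 at 2.22.

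In all, 12 of the 19 probes were higher in iTreg than in the other day 1 cultures and 0 were lower. Leaving out Itgae probe 5, which entered only through the iTreg arrays, 11 of 18 were higher, and the share of all probes called with the same exclusion was 13.5%. Read at the brightest probe, 5 of 9 genes were higher, with a median difference of 0.39 where the median of all probes was -0.01. Over the array 13.5% of probes differed in this comparison, and 6.99% were higher. Against Th0 alone 11 of 19 probes were higher (8.72% of all probes differed), and against Th1 alone 15 of 19 (11.9%), or 10 and 14 of 18 without Itgae probe 5. Il2ra, at 0.39 (SE 0.10, adjusted p = 0.0157), and Swap70 probe 1, at 0.37 (adjusted p = 0.0148), were above Th1. Without the Erk2-deficient Th1 array the count against Th1 was 8. Without the Erk2-deficient iTreg array, which stands apart, 12 probes were called against the other cultures. Th0 was hybridised on the first chip and the other day 1 cultures on the second, and with the second chip alone 12 probes were called and Foxp3 probe 1 differed by 2.45.

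Among markers of other cells, the myeloid genes S100a8 (0.96) and S100a9 (0.51) were also higher in iTreg culture. The myeloid genes Lyz1 (0.05), Lyz2 (-0.03) and Mpo (-0.19) did not pass the test. Of the NK and CD8 genes, Nkg7 (1.35) and Klrd1 (0.69) were higher and Cd8b1 (-1.03) was lower, while Klrb1c (-0.02) and Gzma (-0.09) did not pass. The summed intensity of the 8 myeloid markers was 832 and 1070 in WT and Erk2-deficient iTreg culture and 658 to 870 in the others. Of these markers Lyz1 and S100a8 were above background on 16 of 16 arrays, Lyz2 and S100a9 on 13 and Mpo on 11. Cd14 was above it on 1 array, and Itgam and Fcgr3 on 0. The 7 CD8 and NK markers summed to 1767 and 2510 in iTreg culture and 1480 to 2084 in the others. Cd8b1, Nkg7 and Klrd1 were above background on 16 of 16 arrays, Klrb1c on 10, Gzma on 2, and Cd8a and Ncr1 on 0. B cell markers summed to 421 to 447 at day 1. Their part in the result was not tested.

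Genes around Foxp3 were counted from gene lists, read at 1 probe per gene, and stand beside 13.5% of all probes called, 6.99% higher and a median of -0.01 over all probes. Of 7 tested genes of the interleukin 2 and STAT5 axis, 3 were higher in iTreg than in the other day 1 cultures. They were Stat5a, which carries the signal (1.12, SE 0.07), and the feedback inhibitors Socs2 (0.82, SE 0.18) and Cish (0.75, SE 0.09). The list's median difference was 0.13. Of 17 tested factors that act on the Foxp3 gene, 7 were higher and 1 lower, with a median of 0.10. The TGF receptor chains Tgfbr1 (1.46, SE 0.08) and Tgfbr2 (0.74, SE 0.10) and the transcription factor Foxo1 (0.61, SE 0.07) were among the higher, and Satb1 (-0.72, SE 0.10), a chromatin organiser, was the lower. Smad4 (0.27, SE 0.07) was also among the higher, while Smad2 (0.08) and Smad3 (0.10) did not pass the test.

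Of 16 other Treg-associated genes, 8 were higher and 2 lower, with a median of 0.27. Among the higher were Nt5e (2.29, SE 0.09), the CD73 ectoenzyme that makes adenosine, and Nrp1 (1.30, SE 0.11), a semaphorin receptor. Gpr83 (0.99, SE 0.12) and Lgals1 (0.97, SE 0.10) were higher too. Icos (-0.70, SE 0.10), a costimulatory receptor, and Lag3 (-0.69, SE 0.08), an inhibitory receptor for MHC class II, were lower. Of 5 genes that Foxp3 is known to repress in Treg cells, 3 were lower, namely Ifng (-1.32, SE 0.12), Satb1 and Il4 (-0.37, SE 0.08), and Ptpn22 (0.59, SE 0.08) was higher, with a list median of -0.37. For Ifng the difference was -3.45 against Th1 alone and -1.03 against Th0 alone.

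With brief TGF, 1 member differed from day 1 Th0 culture, which was on another chip. After 1 hr of TGF, Ikzf4 read 7.45 in WT and 7.93 in Erk2-deficient day 1 Th0 cells, against 6.73 and 7.23 without it. After 3 hr it read 7.16 and 7.69. Within each genotype both times were above Th0, by a mean of 0.71 (SE 0.10, adjusted p = 0.00165) at 1 hr and 0.45 (SE 0.10, adjusted p = 0.0260) at 3 hr. No other member probe passed at either time, and Foxp3 probe 1 differed by 0.21 at 1 hr and -0.01 at 3 hr. Over the array 0.4% of probes differed at 1 hr and 2.21% at 3 hr.

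The TGF-treated cells were on the second chip and Th0 on the first, so chip and TGF cannot be told apart here. Ikzf4 read 6.67 and 6.90 in the Th1 culture of the second chip, which differs from Th0 in more than the chip. The 1 hr call was lost without either Th0 array or without the WT 1 hr TGF array, and the 3 hr call without either of its own arrays or either Th0 array. Listed genes around Foxp3 that rose at both times were Tgfbr1 (1.10 and 1.17), Stat5a (0.51 and 0.72) and Nt5e (1.20 and 1.81). Among the genes repressed by Foxp3, Ifng (-0.74) was lower and Ptpn22 (0.94) higher after 3 hr of TGF.

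At 3 hr no member differed between iTreg and Th0 culture by limma after adjustment, where 0% of all probes were called. At an unadjusted p under 0.05 there were 3 member probes and 698 probes in all. Foxp3 probe 1 read 8.60 and 8.51 in WT Th0 and iTreg culture and 7.997 and 7.986 in the Erk2-deficient ones.

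From day 0 to the 3 hr cultures 14 of 19 probes changed, 11 up and 3 down, on a background of 51.2% of all probes. Il2ra rose from 6.41 and 6.59 at day 0 to between 8.42 and 9.53 (2.38, SE 0.09, adjusted p = 1.5e-12). Tnfrsf18 probe 1 rose by 1.77 (SE 0.09), Swap70 probe 1 by 1.90 (SE 0.08), Ikzf4 by 0.84 (SE 0.09), Foxp3 probe 1 by 0.38 (SE 0.11) and Ikzf2 by 0.27 (SE 0.08). Ctla4 fell from 10.26 and 10.44 to between 8.88 and 9.41 (-1.18, SE 0.10), and Itgae probe 1 fell by 0.52 (SE 0.08). The Foxp3 mean hides a genotype split, since the WT arrays read 8.60 and 8.51 at 3 hr and the Erk2-deficient arrays stayed near the day 0 readings of 7.82 and 7.98.

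From 3 hr to day 1 the members parted by culture. In Th0 culture 12 of 19 probes changed, which is near the share of all probes (56.2%). Of the 7 genes called at their brightest probe 5 were lower, where over the array 4147 probes were lower and 4000 higher. Foxp3 probe 1 fell by 0.94 (SE 0.12, adjusted p = 4.4e-06), Ikzf4 by 0.65 (SE 0.10), Ikzf2 by 0.69 (SE 0.09), which is at least 1.43-fold, Itgae by 0.39 and Swap70 by 0.73. Il2ra (1.67, SE 0.10) and Ctla4 (1.68, SE 0.11) rose.

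In iTreg culture 17 of 19 probes changed over the same time (53.8% of all probes). Foxp3 probe 1 rose by 1.62 (SE 0.12), Ikzf4 by 0.97 (SE 0.10), Itgae by 0.61 (SE 0.09) and Capg by 2.34 (SE 0.09), each with an opposite sign or no call in Th0. Il2ra (1.67, SE 0.10) and Ctla4 (2.22, SE 0.11) rose here too. Ikzf2 (-0.29, SE 0.09) and Swap70 probe 1 (-0.63, SE 0.09) fell in both cultures. The 3 hr and day 1 iTreg arrays were on different chips, the Th0 arrays on 1 chip.

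At day 1, 6 of the 9 genes were higher and 1 was lower in Erk2-deficient than in WT cells at their brightest probe. By probe, 12 of 19 differed, 11 higher and 1 lower. Over the array 6.37% of probes differed and 3.49% were higher, and the members' median difference of 0.48 stands beside -0.003 for all probes. Foxp3 probe 1 read 7.09 in Th0, 7.11 in Th1, 9.34 in iTreg, 7.31 after 1 hr TGF and 7.13 after 3 hr TGF in WT cells. The Erk2-deficient arrays read 7.63, 7.56, 10.39, 7.84 and 7.58 in the same order, so that each Erk2-deficient array was above its WT partner. The pair differences ran from 0.45 to 1.05, with a mean of 0.60 (SE 0.08, n = 5 pairs, adjusted p = 0.000134, limma).

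Foxp3 probe 2 was higher by 0.58 (SE 0.07) and probe 3 by 0.35 (SE 0.08), the last in 4 of 5 pairs. Without the iTreg pair, whose Erk2-deficient array stands apart, probe 1 differed by 0.49 (adjusted p = 2.4e-06) and 12 member probes were again called.

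Ctla4 read 10.67, 11.05, 11.18, 10.66 and 10.67 on the WT arrays, in the same order, and 11.27, 11.39, 11.38, 11.23 and 11.42 on the Erk2-deficient arrays. The groups did not overlap (0.49, SE 0.07, adjusted p = 0.000534). Tnfrsf18 probe 1 ranged from 10.81 to 10.90 in WT and from 11.14 to 11.61 in Erk2-deficient cells, also without overlap (0.48, SE 0.07, adjusted p = 0.000455). Its probe 2 was higher in 5 of 5 pairs, by 0.17 to 0.68. The call of probe 2 was lost without either 3 hr TGF array (0.32, adjusted p = 0.0516).

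Ikzf4 was higher in 5 of 5 pairs, by 0.23 to 0.68 (mean 0.48, SE 0.06, adjusted p = 0.000180). Swap70 probes 1 to 3 were higher by 0.50, 0.51 and 0.34, in 5 of 5 pairs each, and probe 4 by 0.15 without passing the test. Il2ra was higher by 0.25 (SE 0.06, adjusted p = 0.0259), in 5 of 5 pairs. Its call was lost with an array of the Th0 or either TGF culture left out (adjusted p = 0.0894 to 0.0979). The call of Foxp3 probe 3 was lost with an array of the Th0, Th1 or 1 hr TGF culture left out (adjusted p = 0.0506 to 0.0748).

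Capg was the member that went the other way. Its probe 1 read 9.18, 8.87, 11.42, 9.28 and 9.38 on the WT arrays and 8.60, 8.30, 10.86, 8.74 and 9.01 on the Erk2-deficient arrays, lower in 5 of 5 pairs (-0.53, SE 0.06, adjusted p = 2.2e-05). Probe 2 differed by -0.15 (adjusted p = 0.227). Ikzf2 (-0.01, SE 0.06) and the 4 Itgae probes tested, at -0.04 to 0.05, did not pass. Capg and Foxp3, which both rose on their brightest probes in iTreg culture, thus differed between genotypes in opposite directions.

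**Figure D3:**
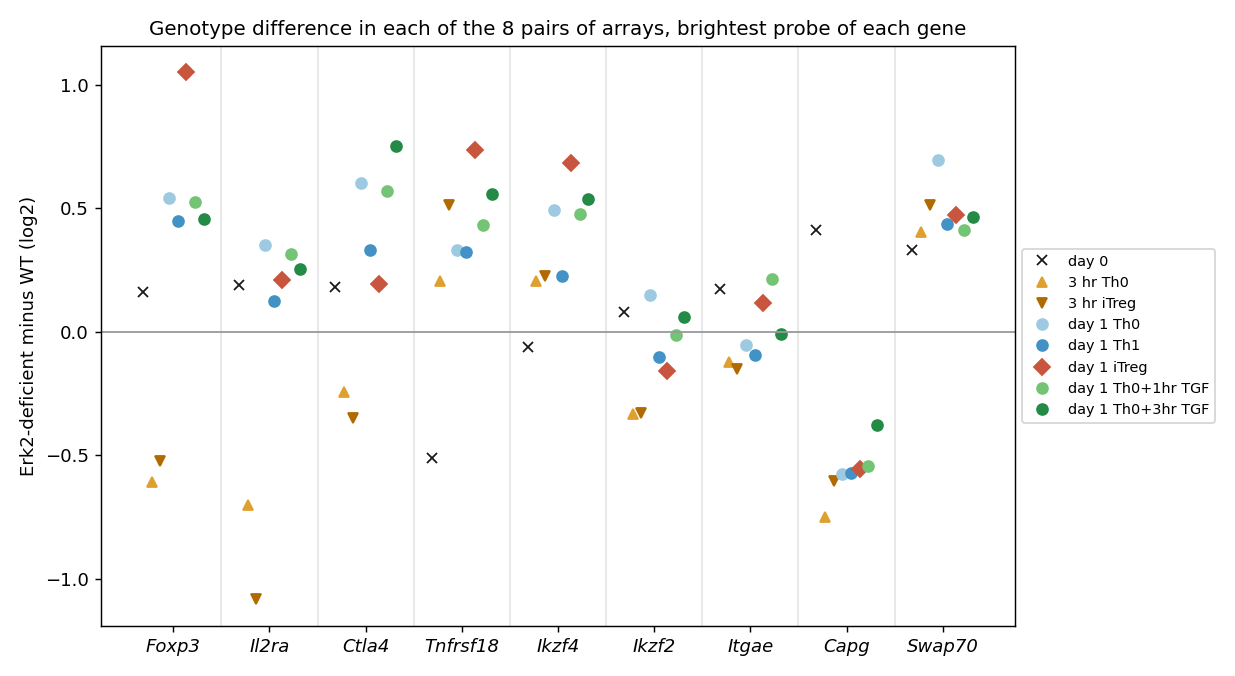
Erk2-deficient minus WT level (log2, vertical axis) in each of the 8 pairs of arrays for the brightest probe of each gene. Foxp3, Il2ra and Ctla4 are below 0 in both 3 hr pairs and above 0 in all 5 day 1 pairs, Swap70 is above 0 in the 7 cultured pairs, and Capg is below 0 in them. The labels of the day 0 pair are in doubt.

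The lists around Foxp3 stand beside 6.37% of all probes called and 3.49% higher at day 1. In them, 3 of 7 genes of the interleukin 2 and STAT5 axis were higher in Erk2-deficient cells at day 1 (Bcl2 0.48, Cish 0.28, Jak3 0.20). Of the 17 factors acting on Foxp3, Ets1 (0.45) and Foxo1 (0.21) were higher and Rel (-0.40) and Nr4a2 (-0.27) lower. Of the 16 other Treg-associated genes, Lgals1 (0.43) and Icos (0.42) were higher and 3 were lower, among them Cd83 (-0.42) and Cd5 (-0.38). Of the 5 genes repressed by Foxp3, Il4 (0.69), Il7r (0.59) and Ptpn22 (0.29) were higher and 0 were lower.

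Markers of other cells also differed at day 1. The red cell gene Hba-a1 (-1.78) and the myeloid genes Lyz1 (-0.60) and Lyz2 (-0.35) were lower in Erk2-deficient cells, and S100a8 (0.71), S100a9 (0.42), Nkg7 (0.77) and Klrd1 (0.31) were higher. From the same lists Alas2 (-0.03), Mpo (0.16), Cd8b1 (-0.19), Klrb1c (0.08) and Gzma (0.09) did not pass the test. Summed myeloid intensity was 658 to 851 in WT and 727 to 1070 in Erk2-deficient arrays, and that of the 4 T cell markers 12109 to 14768 and 13514 to 19542. Their part in the result was not tested. WT arrays held the odd and Erk2-deficient arrays the even positions of each chip, and the effects of position and genotype cannot be told apart. Within the first chip the Th0 pair differed by 0.54 for Foxp3 probe 1 and by -0.58 for Capg probe 1.

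At 3 hr Foxp3 was lower in Erk2-deficient cells. Probe 1 read 8.60 and 8.51 in WT Th0 and iTreg culture and 7.997 and 7.986 in Erk2-deficient cells, with no overlap (-0.57, SE 0.12, n = 2 pairs, adjusted p = 0.0146), and probe 2 differed by -0.58 (SE 0.12). Il2ra read 9.12 and 9.53 in WT and 8.42 and 8.44 in Erk2-deficient cells (-0.89, SE 0.10, adjusted p = 4.1e-05). Capg was again lower (-0.68, SE 0.09), and Swap70 again higher on probes 1 and 2 (0.46 and 0.50).

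These were 6 of 19 probes, where 3.45% of all probes differed. The calls rest on few arrays: without either 3 hr Th0 array 3 probes were called, without either 3 hr iTreg array 2, and Foxp3 probe 1 then had adjusted p values of 0.183 and 0.277. Of the lists, Nr4a2 (-1.45), Nr4a3 (-0.67) and Tgfbr1 (-0.43) were lower among 17 factors acting on Foxp3. At this time 4 of 5 myeloid markers and both red cell markers were also lower in Erk2-deficient cells. The summed myeloid intensity was 3040 to 3613 in WT and 1890 to 1910 in Erk2-deficient arrays, and the red cell sum 5557 to 5659 and 569 to 583. Their part in the result was not tested.

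The genotype difference was negative at 3 hr and positive at day 1 for Foxp3 probes 1 and 2, Il2ra and Ctla4, and the change itself passed the test. The 3 hr difference of Ctla4 on its own did not (-0.30, SE 0.11, adjusted p = 0.191). The faint Foxp3 probe 3 passed neither at 3 hr (-0.18, SE 0.13, adjusted p = 0.560) nor for the change (0.53, SE 0.16, adjusted p = 0.148). It was 1.17 (SE 0.14, adjusted p = 0.000366) for Foxp3 probe 1, 1.16 (SE 0.14) for probe 2, 1.14 (SE 0.12, adjusted p = 0.000186) for Il2ra and 0.79 (SE 0.14, adjusted p = 0.00569) for Ctla4. These 4 of 19 probes compare with 1.23% of all probes. The Ctla4 change was lost with any 3 hr array left out, with adjusted p values of 0.0598 and 0.235. Myeloid markers changed in the same direction, 5 of 5, as did both red cell markers, at 0.61 to 1.66. For Capg (0.15), Swap70 (0.04), Tnfrsf18 (0.12) and Ikzf4 (0.27) the change did not pass the test.

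**Figure D4:**
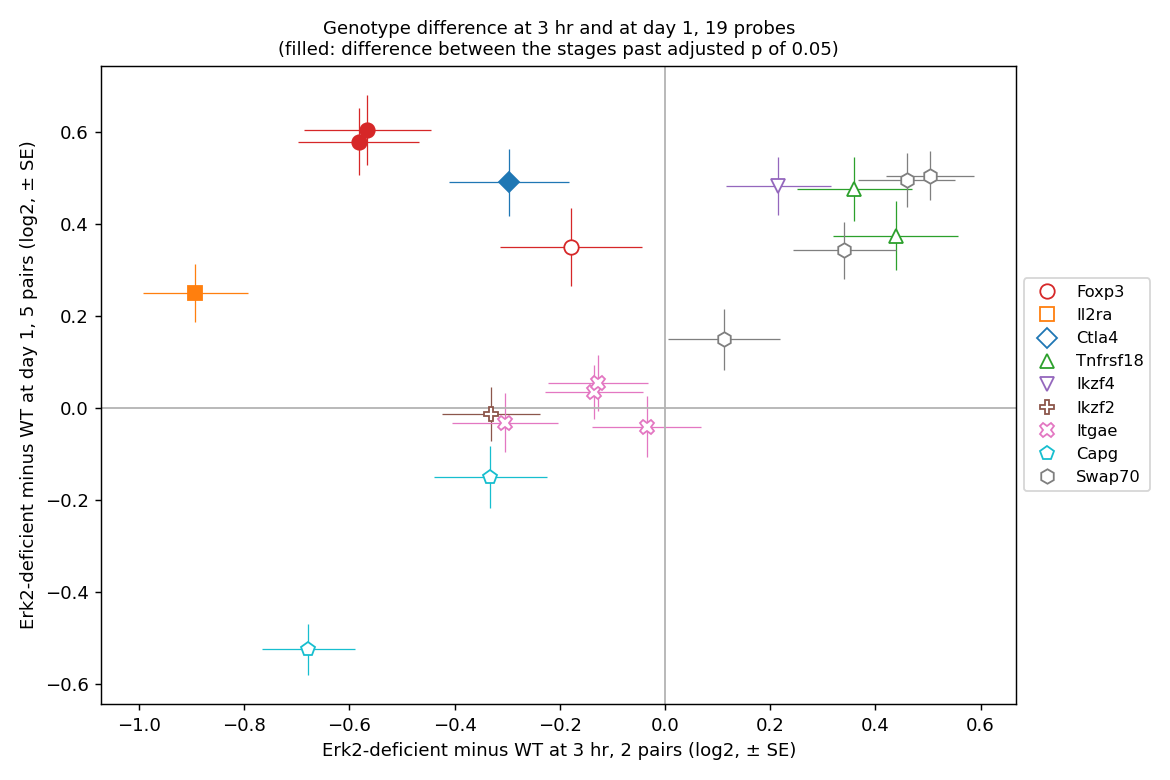
Genotype difference (Erk2-deficient minus WT, log2) at 3 hr on the horizontal axis, from 2 pairs, against that at day 1 on the vertical axis, from 5 pairs, for the 19 probes tested, with SE bars. The 4 filled symbols, 2 Foxp3 probes with Il2ra and Ctla4, have negative values at 3 hr and positive values at day 1, while Capg is negative and Swap70 positive at both.

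The genotype difference of Foxp3 was greater in day 1 iTreg culture than in the other day 1 cultures on probe 1. It was 1.05 in the iTreg pair and 0.49 in the mean of the other 4 pairs, and the excess of 0.56 (SE 0.13) had an adjusted p of 0.0131. Probes 2 and 3 had excesses of 0.44 (adjusted p = 0.0710) and 0.52 (adjusted p = 0.0509). This was 1 of 19 probes, and 4.97% of all probes were called. It rests on the 1 Erk2-deficient array that stands apart, and without that array there is no value. With the authors' normalized values the excess was 0.47 (adjusted p = 0.0609), and with median scaling 0.38 (adjusted p = 0.135). On the same array the T cell markers Cd3g (0.91) and Cd3d (0.62) had excesses of the same sign, and their sum was 19542 there and 12109 on its WT partner. Their part in the result was not tested.

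Foxp3's own probes followed each other with Pearson r of 0.993 (probe 2) and 0.990 (probe 3) against probe 1 over the 10 day 1 arrays. These correlations are descriptive, since the arrays share cultures and chips and the iTreg pair lies far from the rest. Among the other members r was highest for Itgae probe 1 (0.949) and Ikzf4 probe 1 (0.912), lower for Capg probe 1 (0.811) and Il2ra (0.723), and lowest among the probes tested for Swap70 probe 4 (-0.05). Over all 16 arrays Il2ra (0.05) and Ctla4 (-0.02) did not follow Foxp3.

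Among all kept probes, those most like Foxp3 over the 10 day 1 arrays were 4 probes of Lmna, from 0.968 to 0.986, with Ube2b (0.969), Avpr1a (0.969), Igfbp4 (0.969) and Zfhx3 (0.967). Over all 16 arrays they were Zfhx3 (0.906), Nupr1 (0.887), Fam20a (0.879), Emp1 (0.874), Fbxo2 (0.872), Acsbg1 (0.866), Fes (0.856) and Ctsw (0.850). All these probes were chosen by r, so their likeness is a description. On the other day 1 arrays Zfhx3 read at most 6.10, Fam20a 6.18, Fbxo2 6.23 and Acsbg1 6.25, none above background. The day 1 course of these 4 genes therefore rests on the iTreg pair. Lmna encodes the nuclear lamins A and C. Its probe closest to Foxp3 read 8.35 and 9.05 in WT and Erk2-deficient iTreg culture and 6.91 to 7.40 in the other day 1 cultures. The probe was picked for its correlation with Foxp3, so its high level on the Erk2-deficient iTreg array follows from that choice. That array also stands apart from the other day 1 arrays.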

How the data were processed

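Trizol RNA of the 16 samples was turned into biotin-labelled cRNA and hybridised to Illumina bead arrays, per the labels' protocols. The deposited non-normalized table holds linear intensity values per probe and has no detection p-values or control probes. A second deposited table holds intensity that the authors had normalized. The sources used here give neither that method nor the scanner's background setting. Probes were named from the platform annotation.

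With limma 3.58.1 (R 4.3.3), background was corrected by normexp with an offset of 50, arrays were brought to common quantiles and log2 was taken. The offset understates the change of dim probes. A probe was above background on an array past the 99th percentile of a normal distribution fitted around the mode of log2 intensity, and probes above it on at least 2 of 16 arrays were kept. Differences were fitted across all 14501 kept probes (lmFit and eBayes, Benjamini-Hochberg, adjusted p threshold 0.05), with 8 cultures and a genotype term for each of day 0, 3 hr and day 1. A further term gave the iTreg pair its own genotype difference, on the assumption that this pair varies like the others. With 1 array for each combination there are no replicate arrays, and the spread comes from how the pairs differ. All 16 arrays enter the fit of each comparison, so an array left out also changes the spread behind comparisons it is not part of. The number of arrays limits the precision. The procedure was tested on simulated data.

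The named genes are the 9 members, the 8 probes most correlated with Foxp3 probe 1 over the day 1 arrays and over all arrays, and up to 4 called members of each list, those of largest difference. A few list members are named beside them, with smaller differences (such as Icos, Lag3 and Smad4) or with values that did not pass. The members, lists and tests were chosen with earlier results of these data known. Alternatives were the authors' normalized values, other corrections, scalings, filters and priors, array weights, a simpler genotype term, 1 chip alone, 1 genotype alone and each array left out. Promoter windows are from RefSeq (GRCm38.p6).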

Additional observations from a re-analysis of the deposited data

Results flagged for a closer look

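The genotype difference, Erk2-deficient minus WT, differed between day 1 and 3 hr by a test of that difference for Foxp3 probe 1 (1.17), Foxp3 probe 2 (1.16), Il2ra (1.14) and Ctla4 (0.79). These probes were higher in Erk2-deficient cells in 5 of 5 day 1 pairs and lower in both 3 hr pairs. For Foxp3 probe 1 the genotype difference was also greater in the day 1 iTreg pair than in the other 4 day 1 pairs, by 0.56. That value rests on 1 pair.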

How the results depend on the processing

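Counts are of the 19 member probes. In the 5 comparisons followed probe by probe, no member difference that passed the test changed sign under an alternative. Some that did not pass did, such as Ikzf2 between genotypes at day 1 (-0.01, against 0.15 in the first chip's pair) and Tnfrsf18 probe 2 for iTreg against the other day 1 cultures (0.19, against -0.004 on the WT arrays). The excess genotype difference in iTreg culture, 1 probe, became 0 with the authors' normalized values, an offset of 16 or a simpler genotype term, 3 with no background correction and 2 with array weights. The 3 hr TGF count of 1 became 0 with median scaling or an additive genotype term and 4 with array weights, and the 1 hr TGF count of 1 became 0 with the additive term. A genotype term that pools day 0 with 3 hr left 0 of the 6 calls at 3 hr and 0 of the 4 changes between stages. This term mixes in the day 0 pair, whose labels are in doubt. With 1 array left out the counts ran from 2 to 12 for the genotype difference at 3 hr, 0 to 1 for 1 hr TGF, 0 to 4 for 3 hr TGF, 8 to 15 for iTreg against Th1 and 1 to 2 for the excess in iTreg culture. The genotype difference at 3 hr reached 12 without either day 1 iTreg array. With 1 array left out, iTreg against the other day 1 cultures ran from 12 to 13 probes and the genotype difference at day 1 from 10 to 12. Over all probes, counts that moved by more than 1.5 times were those for iTreg against the other day 1 cultures (1960, against 890 with array weights and 986 without the Erk2-deficient iTreg array) and for genotype at day 1 (923, against 537 with an offset of 16, 576 with the simpler genotype term, 420 on the second chip alone and 409 to 588 with a Th1 or 3 hr TGF array left out). The count for genotype at 3 hr was 501 and moved between 0 and 1070, that for the change between stages was 179 and moved between 14 and 403, and that for the excess in iTreg culture was 721 and moved to 228 and 327. Counts moved from 58 to between 19 and 127 for 1 hr TGF, from 321 to between 93 and 701 for 3 hr TGF, from 1265 to between 565 and 2474 for iTreg against Th0 and from 1724 to between 666 and 3010 for iTreg against Th1. The fit already pairs the genotypes by culture. All samples carry replicate number 1, so the number gives no further pairing. The causes were not tested.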
